A study of Homo sapiens with 25 samples.

Results

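Retinoic acid, the signalling form of vitamin A, is made and destroyed inside cells by a small set of enzymes. RDH10 oxidises retinol to retinaldehyde, and ALDH1A1, ALDH1A2 and ALDH1A3 oxidise retinaldehyde to retinoic acid. DHRS3 reduces retinaldehyde back to retinol, and the cytochrome P450 enzymes CYP26A1, CYP26B1 and CYP26C1 hydroxylate retinoic acid for removal. CRABP1 and CRABP2 bind retinoic acid in the cytoplasm, CRABP2 being known for handing it to the nuclear receptors. In mouse and chick embryos retinoic acid patterns the foregut and the hindmost pharyngeal arches, so the balance of its synthesis and degradation is of interest wherever pharyngeal endoderm is made. These 10 genes were chosen by name for these roles, and are described here out of 20037 protein-coding genes on chromosomes 1 to 22, X and Y.

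All libraries came from H1, a human embryonic stem cell line in wide use. They were made from the undifferentiated cells (hESC) and at 3 steps of a directed differentiation: hDE, definitive endoderm, then hAFE, the anterior foregut stage, then hPFE, the pharyngeal foregut stage. The labels name no genetic change and no treatment beyond the stage, and all groups come from this 1 line. Chromatin immunoprecipitation with sequencing was deposited for H3K27ac, a mark of active promoters and enhancers, for H3K27me3, the Polycomb mark of silenced developmental genes, and for H3K4me2, a mark found at both active and primed regulatory sites. The series addresses which chromatin states accompany each step towards pharyngeal endoderm. Each stage had 2 libraries of each mark, except that H3K27me3 in hAFE and H3K4me2 in hAFE and hPFE had 1. Together these are 21 peak lists, and 4 inputs served only as the authors' controls.

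The lists held 24871 to 111256 peaks for H3K27ac, 23457 to 76441 for H3K27me3 and 87357 to 116210 for H3K4me2, and the shortest H3K27ac lists were those of hAFE, with 42100 and 24871 peaks. Per their titles, the hESC H3K27ac and H3K27me3 libraries were re-analysed from an earlier deposit, so for these marks a contrast with hESC is also one between deposits, and stage and batch cannot be told apart in it. For H3K27me3, replicate 1 of hESC, hDE and hPFE has the word millipore in its file name, with no explanation in the sources used here. Marker genes were checked by H3K27ac at their ends in both libraries of a stage. The mark was present at 4 of 4 hESC markers in hESC, 6 of 6 hDE markers in hDE, 3 of 4 hAFE markers in hAFE and 2 of 7 hPFE markers (FOXE1 and ISL1) in hPFE. The rest of the hPFE markers, PAX1, PAX9 and TBX1 among them, lacked it in at least 1 hPFE library, so the pharyngeal identity of hPFE was only partly visible in this mark. The 3 hAFE markers with the mark in hAFE, SOX2, FOXA2 and ISL1, had it in hPFE too, so they did not separate hAFE from hPFE. Of the hPFE markers, ISL1 already had it in hAFE. Of the hESC markers, NANOG and L1TD1 also had it in hDE, SOX2 in hAFE, and NANOG and SOX2 in hPFE. At every stage it was present at 0 of 3 neural, 0 of 3 mesoderm and 0 of 3 blood and endothelium markers, and among 3 mesenchyme markers only at COL1A2, in hESC.

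Below, marked means that all libraries of the stage had a peak less than 1 kb from the start or the end of the gene. A gene gained a mark when no library of the earlier stage and every library of the later stage had such a peak, and lost it in the reverse case. These are calls without a test. A tested measure was the length covered by peaks over the gene with 1 kb either side, in base pairs (bp), compared between stages with an exact permutation test over libraries and Benjamini-Hochberg adjustment over all genes with any peak of the mark. Fold enrichments are the authors' own values of a peak within its list and are not compared between lists. A peak in some of the cells and a weaker peak in all of them cannot be told apart in these bulk libraries.

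H3K4me2 lay at nearly all 10 genes throughout, H3K27me3 at 4 to 7 of them, and H3K27ac at 3 to 5. H3K27ac marked 3, 5, 4 and 5 of the 10 genes in hESC, hDE, hAFE and hPFE, where it marked 42.9%, 54%, 34.2% and 50.2% of all protein-coding genes, so these counts were near the background. H3K27me3 marked 7, 4, 6 and 6 of the 10, beside 19.2%, 13.4%, 15.5% and 12.7% of all genes. H3K4me2 marked 10, 9, 9 and 9, beside 72.3%, 68%, 70.2% and 70.1%. H3K4me2 and H3K27me3 shared the ends of 7 of the 10 genes in hESC, against 18.5% of all genes, and of 4, 6 and 6 in hDE, hAFE and hPFE, against 11.6%, 13.2% and 10.3%. In hESC these 7 were ALDH1A2, ALDH1A3, all 3 CYP26 genes and both CRABP genes.

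**Figure D1:**
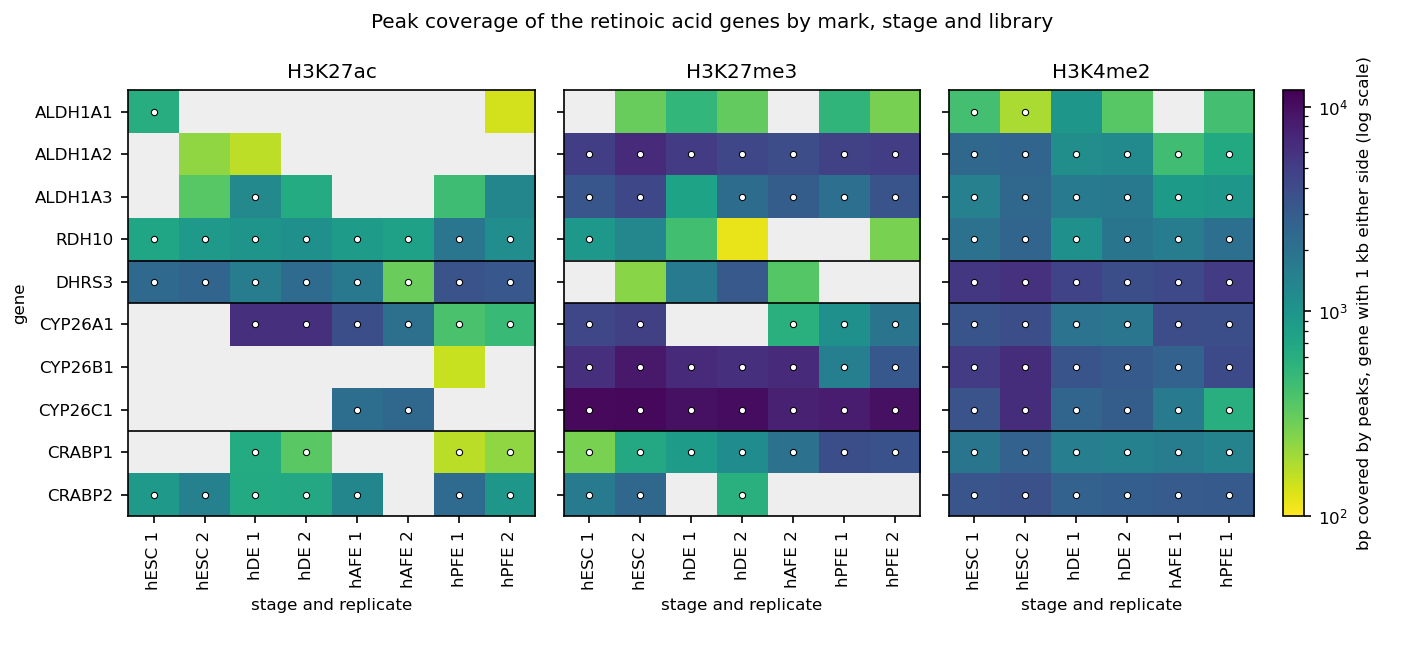
Base pairs covered by peaks (colour, log scale) over each gene with 1 kb either side, for each library of H3K27ac, H3K27me3 and H3K4me2. Rows run from synthesis genes through DHRS3 and the CYP26 genes to the CRABP genes, separated by lines, grey cells hold no peak, and white dots mark a peak within 1 kb of a gene end. The H3K27ac cells of CYP26A1 are empty in hESC and filled in the other 6 libraries, while H3K27me3 fills the CYP26C1 row in all 7.

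By role, the 4 synthesis genes carried H3K27ac at 1 gene at each stage, and the 3 degradation genes at 0, 1, 2 and 1 in hESC, hDE, hAFE and hPFE. H3K27me3 marked 2, 1, 2 and 2 of the synthesis genes and 3, 2, 3 and 3 of the degradation genes. H3K4me2 marked 4, 3, 3 and 3 of the synthesis genes and all 3 degradation genes at every stage. Over all genes, in the same order of stages, H3K27ac marked 42.9%, 54%, 34.2% and 50.2%. H3K27me3 marked 19.2%, 13.4%, 15.5% and 12.7% of all genes, and H3K4me2 72.3%, 68%, 70.2% and 70.1%. The 1 acetylated synthesis gene was RDH10, and its peak is shared with a neighbour, as described below.

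CYP26A1, whose product is the main retinoic acid hydroxylase of early embryos in mouse and zebrafish, had the widest H3K27ac of the degradation genes in both hDE libraries. The gene lies on chromosome 10 (chr10:93073475-93077885, plus strand, GRCh38). It is known as a direct target of retinoic acid through response elements in its promoter, which are direct repeats of a hexamer with a spacing of 5 bases. The RefSeq table (GRCh38.p14) gives 2 starts for CYP26A1, and the 250 bases before the second, chr10:93073643-93073892 on the plus strand, are shown because they hold such a repeat, in capitals.
CYP26A1 promoter: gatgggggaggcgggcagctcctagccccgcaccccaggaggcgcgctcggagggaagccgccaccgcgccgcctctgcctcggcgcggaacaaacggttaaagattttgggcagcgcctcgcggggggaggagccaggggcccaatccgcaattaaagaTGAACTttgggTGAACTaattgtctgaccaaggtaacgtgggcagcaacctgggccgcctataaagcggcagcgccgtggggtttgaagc
The search took the consensus hexamer AGGTCA, its common variant AGTTCA, and the same hexamers starting with another base, that is GGGTCA in place of the consensus and GGTTCA in place of the variant, on both strands, with both hexamers of a pair in the same orientation. The match lies at chr10:93073803-93073819 and reads as AGTTCA on the minus strand, and its first base is 90 bp upstream of the start. Such a repeat was found in 31 of 35116 RefSeq promoter windows (0.0883%), and in 1 of the 13 windows of the 9 members in the table. RDH10 is the member that was not matched there. With spacings of 1 and 2 bases, the 13 windows held no match.

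H3K27ac covered 0 and 0 bp of CYP26A1 in the hESC libraries, 6121 and 6200 bp in hDE, 3818 and 2033 bp in hAFE, and 397 and 464 bp in hPFE. The groups did not overlap: coverage was widest in both hDE libraries and absent in both hESC libraries. The exact p was 0.00952, the smallest that the 105 partitions of 8 libraries allow, with an adjusted p of 0.181 over 16572 genes. Of these genes, 848 (5.12%) were at that same smallest p. Mean coverage was 6160 ± 55.9 bp in hDE and 2926 ± 1262 bp in hAFE (SD, n = 2 each). In hDE replicate 1 the peak over the first start (chr10:93072077-93073582) had a fold enrichment of 18.5, in the top 0.0484% of its list, and a second peak ran from chr10:93073873-93080881, through the gene and past its 3′ end. In hDE replicate 2 the strongest peak had a fold of 14.4 (top 1.14%). In hAFE the strongest end peaks had folds of 5.88 and 4.35 and in hPFE of 3.88 and 2.03, the last within the weakest few percent of its list (98.3% of peaks were as strong or stronger). In hPFE replicate 2 the only end peak lay 766 bp before the gene, with a −log10 q of 0.396, and CYP26A1 was not called in hPFE once peaks under a −log10 p of 5 were left out.

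H3K27me3 showed the reverse order at CYP26A1 in the first step. It covered 4301 and 4833 bp in the hESC libraries, 0 and 0 bp in hDE, 570 bp in the single hAFE library, and 1094 and 1899 bp in hPFE. The strongest hESC peaks had folds of 10.2 and 22.6, and in replicate 2 a single peak ran from before the start to within 1 kb of the 3′ end. The exact p was 0.019 (adjusted p 0.485 over 12794 genes, smallest possible exact p 0.00952). H3K4me2 was never absent, with 3458 and 3787 bp in hESC, 1924 and 1825 bp in hDE, 3841 bp in hAFE and 3769 bp in hPFE (exact p 0.156). In hDE, the stage of widest H3K27ac, H3K4me2 covered the flanks of the gene and not its middle.

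The direct repeat lay between peaks in the hDE H3K27ac lists, 221 bp after one peak and 54 bp before the next in replicate 1, and 107 and 89 bp in replicate 2. It lay inside an H3K27ac peak only in hPFE replicate 1. It was inside H3K27me3 peaks in both hESC libraries and in hPFE replicate 2, and inside H3K4me2 peaks in both hESC libraries and in the hAFE and hPFE libraries. In both hDE H3K4me2 libraries it was outside, 430 and 313 bp from the nearest peak. In hDE the repeat was thus flanked on both sides by H3K27ac, and covered by none of the 3 marks.

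**Figure D2:**
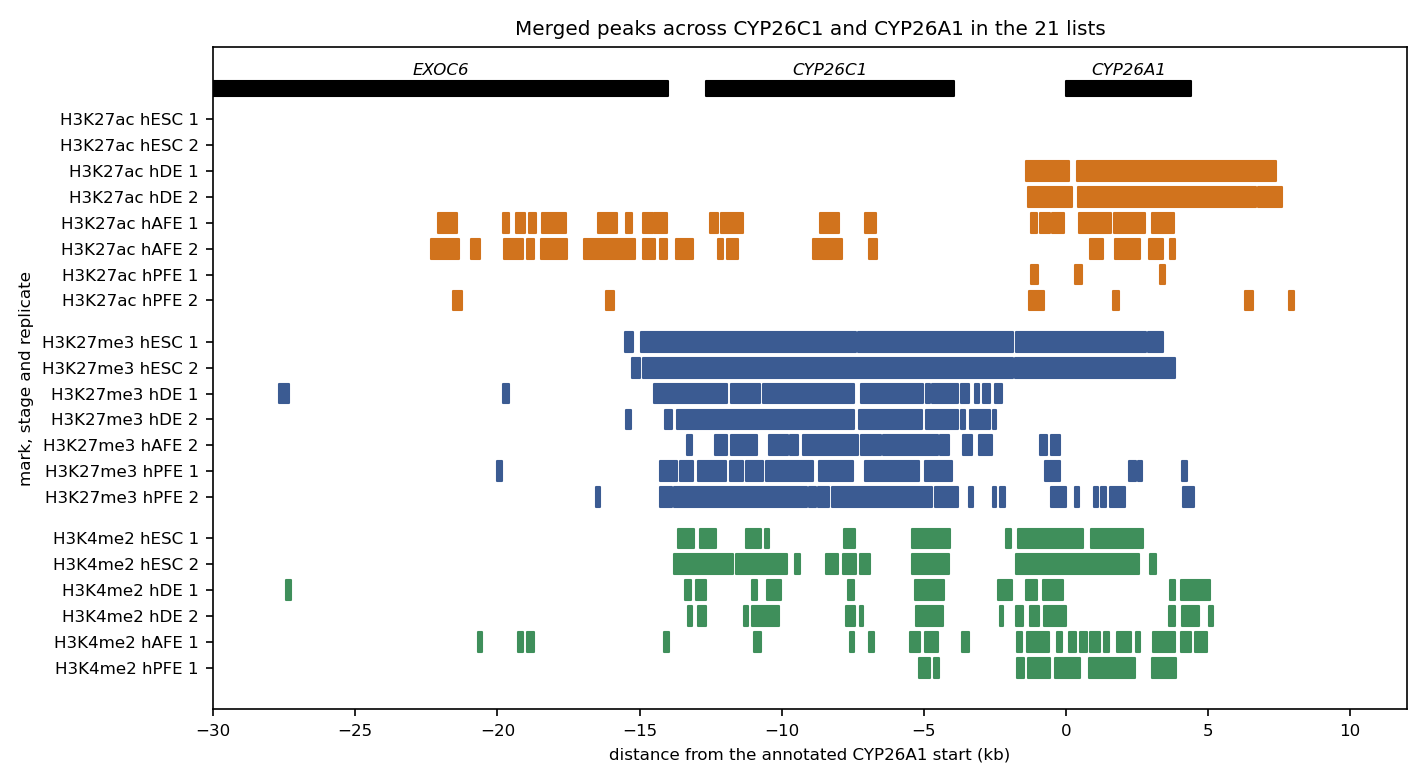
Merged peaks (bars) in each of the 21 lists against distance from the annotated CYP26A1 start in kb, with EXOC6, CYP26C1 and CYP26A1 as black boxes and libraries from hESC to hPFE within each mark. H3K27ac is on CYP26A1 in both hDE libraries and spread over the CYP26C1 side in both hAFE libraries, while H3K27me3 covers CYP26C1 in all 7 of its libraries.

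CYP26C1, a further retinoic acid hydroxylase gene, lies 3934 bp from CYP26A1 on the same strand (chr10:93060798-93069540) and had a different order of marks. H3K27me3 covered it in every library, with 10657 and 10743 bp in hESC, 9699 and 10178 bp in hDE, 7776 bp in hAFE, and 8228 and 9606 bp in hPFE (exact p 0.133, adjusted p 0.548). These were the widest H3K27me3 values of any of the 10 genes in each library. The hESC replicate 2 peak over the whole gene had a fold of 25.4, in the top 0.135% of its list. H3K27me3 thus stayed on CYP26C1 in hDE, where neither library had any on CYP26A1.

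H3K27ac at CYP26C1 was present in hAFE alone, over 2136 and 2418 bp, with 0 bp in the 2 libraries of each other stage. The strongest end peaks had folds of 3.55 and 3.91, in the top 69.9% and the top 39.2% of their lists. With 6 of 8 libraries at 0 the exact p could not go below 0.143, and was 0.143 (adjusted p 0.277). The call was lost under a stricter −log10 p (5) or −log10 q (2), and with lists of equal length. H3K4me2 covered 3494 and 6453 bp in hESC, 2507 and 2929 bp in hDE, 1624 bp in hAFE and 589 bp in hPFE (exact p 0.289).

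The hAFE acetylation was not limited to the gene ends. Within 100 kb of CYP26C1 and CYP26A1, 8 H3K27ac regions were present in both hAFE libraries and in none of the other 6. There were 1113 such hAFE regions in the genome, the median gene had 0 within 100 kb, and 4 of 20037 genes (0.02%) had 8 or more, namely CYP26A1, CYP26C1, their neighbour EXOC6, which holds part of the same regions, and MAPK10. Of the 8, 7 lay within chr10:93053669-93066819, with middles from -6747 to 5807 bp from the CYP26C1 start, and 3 of these overlapped the hAFE H3K27me3 peaks. The 3 that overlapped H3K27me3 lay inside CYP26C1. All others of the 8 lay inside EXOC6 (chr10:92826831-93059490), an exocyst gene that ends 1307 bp before CYP26C1. One of the 7 was at the end of EXOC6. Over all 8 regions, folds were 2.98 to 6.24 in hAFE replicate 1 and 3.1 to 5.82 in replicate 2. With the stricter −log10 p, 2 such regions were left, and the number was 14 and 15 without hAFE replicate 1 and replicate 2.

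CYP26B1, the hydroxylase gene on chromosome 2 (chr2:72129238-72147862, minus strand), stayed without H3K27ac at its ends in all 8 libraries, and only 150 bp inside the gene were covered, in hPFE replicate 1. H3K27me3 covered 6335 and 8639 bp in hESC, 6770 and 6295 bp in hDE, 6602 bp in hAFE, and 1512 and 3225 bp in hPFE. Both hPFE libraries lay below the 5 libraries of the earlier stages, though the exact p was 0.124 (adjusted p 0.548). H3K4me2 was at the start in all 6 libraries, and covered 2685 to 6423 bp of the gene with 1 kb either side. By these calls the 3 degradation genes differed in H3K27ac, being acetylated from hDE on, in hAFE alone, and never, while all 3 carried H3K27me3 in hESC. With peaks under a −log10 p of 5 left out, CYP26A1 was not called in hPFE, nor CYP26C1 in hAFE.

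**Figure D3:**
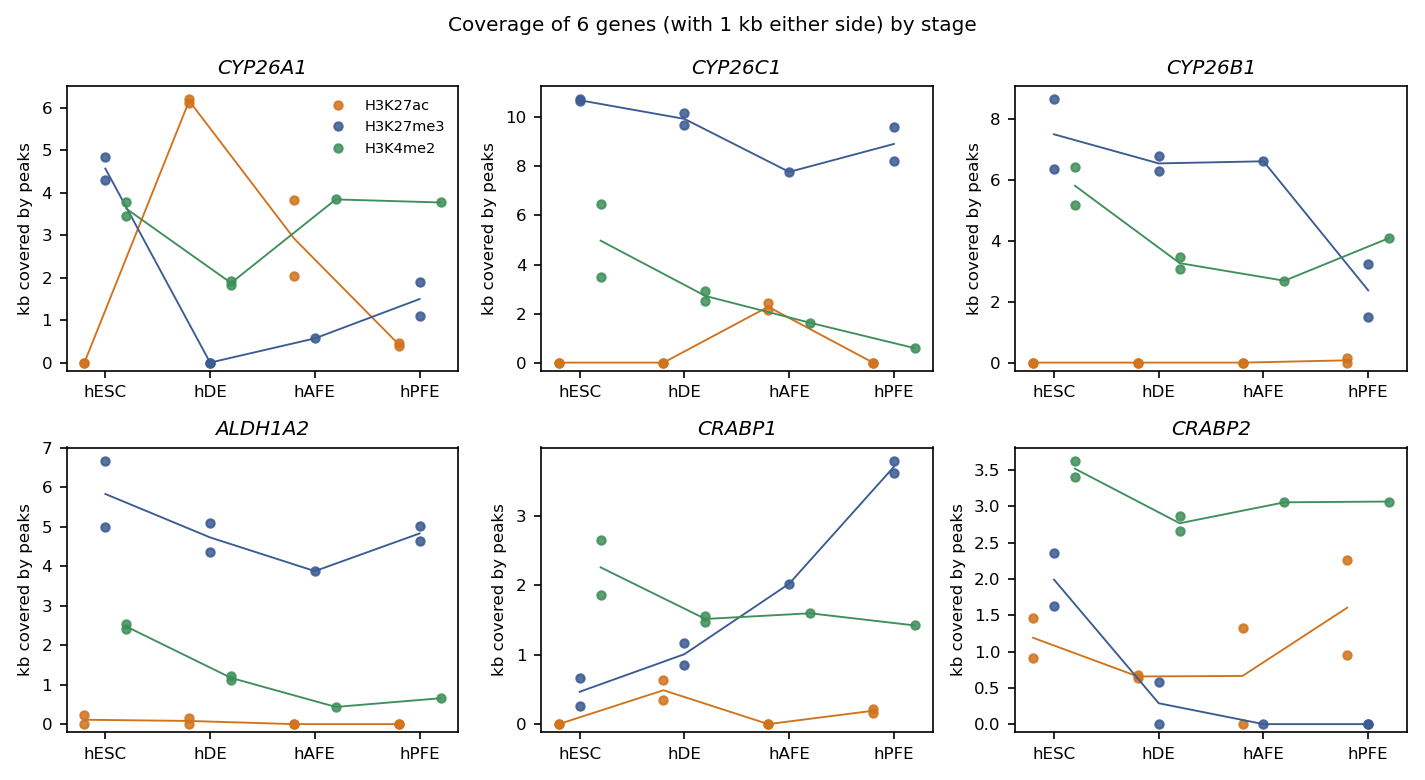
Length covered by peaks in kb over 6 of the genes with 1 kb either side, by stage (points are libraries, lines join stage means, and H3K27me3 in hAFE and H3K4me2 in hAFE and hPFE have 1 library each). CYP26A1 H3K27ac is highest in hDE at 6121 and 6200 bp, and CRABP1 H3K27me3 is highest in hPFE at 3789 and 3614 bp.

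Among the synthesis genes, ALDH1A2, whose enzyme makes most retinoic acid of the early mouse embryo, was a Polycomb-marked gene at every stage. The 250 bases before its first start, chr15:58065712-58065961 on the minus strand, are shown beside those of ALDH1A1, chr9:72953054-72953303 on the minus strand, because the first gene had H3K27me3 at its start in every library and the second in none. CG dinucleotides are in capitals.
ALDH1A2 promoter: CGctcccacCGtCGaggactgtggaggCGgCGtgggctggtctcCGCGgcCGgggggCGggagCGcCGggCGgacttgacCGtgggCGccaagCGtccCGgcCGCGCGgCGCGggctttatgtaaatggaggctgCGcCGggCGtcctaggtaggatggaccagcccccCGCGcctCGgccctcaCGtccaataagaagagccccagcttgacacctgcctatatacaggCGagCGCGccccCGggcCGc
ALDH1A1 promoter: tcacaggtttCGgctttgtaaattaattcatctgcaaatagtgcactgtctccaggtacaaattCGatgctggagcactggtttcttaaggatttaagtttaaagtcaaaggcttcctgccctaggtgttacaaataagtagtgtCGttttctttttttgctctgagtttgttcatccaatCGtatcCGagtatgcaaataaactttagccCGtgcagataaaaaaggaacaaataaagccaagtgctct
In the 300-base RefSeq windows the ALDH1A2 promoter held 41 CG dinucleotides (observed over expected 0.998) and that of ALDH1A1 held 7 (0.574), beside a median of 14 (0.579) over 35116 windows. The other synthesis gene with a window, ALDH1A3, held 46 (0.923). This pair does not stand for all members. The window at the first DHRS3 start held 31 (0.99), and DHRS3 had H3K27me3 at neither end in any library. A link between CG content and H3K27me3 was not tested.

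H3K27me3 lay at the ALDH1A2 start in all 7 libraries. Over the gene with 1 kb either side it covered 4982 and 6669 bp in hESC and 5095 and 4357 bp in hDE. In hAFE it covered 3873 bp, and in hPFE 4631 and 5024 bp (exact p 0.362). No library had H3K27ac at either end. H3K4me2 covered 2409 and 2532 bp in hESC, 1118 and 1223 bp in hDE, 435 bp in hAFE and 655 bp in hPFE, without overlap between hESC, hDE and the later stages. Its exact p was 0.0222, the smallest that 45 partitions of 6 libraries allow, and the adjusted p was 0.395 over 17716 genes. That same smallest p was reached by 931 of these genes (5.26%). Within 100 kb, no H3K27ac region outside the ends of other genes was shared by both libraries of any stage.

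ALDH1A3, the third retinaldehyde dehydrogenase gene (chr15:100879831-100916626, plus strand), carried H3K27me3 at its ends in 6 of 7 libraries and H3K4me2 in 6 of 6. H3K27me3 covered 3310 and 4283 bp in hESC, 749 and 2189 bp in hDE, 2934 bp in hAFE, and 2096 and 3440 bp in hPFE (exact p 0.267). H3K27ac at an end was found only in hDE replicate 1, with a fold of 2.29. Inside the gene, a region at chr15:100898207-100898790 was acetylated in both hDE libraries, and another at chr15:100889178-100889480 in both hPFE libraries, with folds of 4.77 and 2.71. Neither region was in any other library. The start of ALDH1A3 faces the predicted gene LOC124903575, so in 5 of the 6 H3K4me2 libraries every end peak was also at an end of that gene.

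ALDH1A1, a retinaldehyde dehydrogenase gene known from adult tissues (chr9:72900671-72953053, minus strand), had few peaks at its ends. H3K27me3 lay at neither end in any library. H3K27ac was at the start in hESC replicate 1 alone, with a fold of 3.55, and H3K4me2 at the start in both hESC libraries, with folds of 3.21 and 3.05. By these calls ALDH1A1 lost H3K4me2 in hDE against hESC, as 2.04% of all genes did. The call was lost under 4 of 11 alternatives: the stricter −log10 p, the stricter −log10 q, an overlap of at least 200 bp, and the whole gene in place of its ends. Over the gene with 1 kb either side, H3K4me2 covered 416 and 184 bp in hESC, 959 and 345 bp in hDE, 0 bp in hAFE and 422 bp in hPFE, and these groups overlapped (exact p 0.622). Both H3K4me2 peaks were in the weaker part of their lists, with 68.2% and 74.2% of peaks as strong or stronger.

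RDH10, the retinol dehydrogenase gene (chr8:73294602-73325281), counted as acetylated in all 8 libraries, with the strongest end peaks at folds of 13.6 and 8.99 in hESC, 15.3 and 16.3 in hDE, 9.89 and 3.61 in hAFE, and 6.31 and 13.8 in hPFE. These peaks lay before the gene, within RPL7 (chr8:73290242-73294466), a ribosomal protein gene whose upper end is 135 bp from RDH10. In 7 of the 8 libraries every end peak of RDH10 was also at an end of RPL7, and only in hPFE replicate 1 did an end peak reach into RDH10. Which of the genes these peaks belong to cannot be told apart here. Inside RDH10 itself H3K27ac covered 0 and 170 bp in hESC, 160 and 145 bp in hDE, 0 and 0 bp in hAFE, and 1110 and 339 bp in hPFE. Both hPFE libraries were above the other 6, and shared a region at chr8:73295848-73296186 that no other library had. H3K27me3 covered 943 and 1315 bp of RDH10 with 1 kb either side in hESC, 430 and 118 bp in hDE, 0 bp in hAFE, and 0 and 262 bp in hPFE. Both hESC libraries were above the other 5 (exact p 0.0952, adjusted p 0.548), and only hESC replicate 1 had a peak at an end. For H3K27ac, the exact p of RDH10 with 1 kb either side was 0.0286 (adjusted p 0.181), a value that includes the RPL7 side. H3K4me2 reached into RDH10 in 6 of 6 libraries.

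DHRS3, the retinaldehyde reductase gene (chr1:12567910-12618210, minus strand), is itself known to be induced by retinoic acid. H3K27ac lay at its start in all 8 libraries. Over the gene with 1 kb either side it covered 2343 and 2496 bp in hESC and 1585 and 2233 bp in hDE. In hAFE it covered 1717 and 300 bp, and in hPFE 3529 and 3253 bp. By this measure both hPFE libraries were above all others and hAFE replicate 2, the shortest list, was lowest (exact p 0.0381, adjusted p 0.201). Within 1 kb of the ends the groups overlapped. There H3K27ac covered 1357 and 927 bp in hESC and 433 and 792 bp in hDE. In hAFE it was 1142 and 300 bp, and in hPFE 1826 and 998 bp. Upstream of the start, 4 regions were acetylated in both hESC libraries and in none of the other 6, and 5.28% of all genes had as many or more within 100 kb. One of these lay at the end of AADACL3, far upstream, and the other 3 had their middles from -12166 to -8660 bp from the DHRS3 start. The widest, chr1:12629740-12631012, had folds of 7.11 and 5.59. In hPFE, both libraries shared a region inside the gene at chr1:12596082-12596650 that was also in 1 hDE library. H3K27me3 was at neither end in any library, and covered 0 and 233 bp inside the gene in hESC, 1649 and 3151 bp in hDE, 355 bp in hAFE, and 0 and 0 bp in hPFE (exact p 0.114).

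The genes of the binding proteins went apart. CRABP1 (chr15:78340353-78348225, plus strand) carried H3K27me3 at its start in all 7 libraries. Over the gene with 1 kb either side it covered 264 and 666 bp in hESC and 847 and 1165 bp in hDE. In hAFE it covered 2019 bp, and in hPFE 3789 and 3614 bp. By this measure the stages did not overlap and were in the order of differentiation, with an exact p of 0.00952 and an adjusted p of 0.485. That exact p is the smallest possible, and 218 genes (1.7% of those tested) reached it. Within 1 kb of the ends, H3K27me3 covered 264 and 639 bp in hESC and 847 and 1006 bp in hDE. There the single hAFE library was highest, with 2001 bp, beside 1810 and 1902 bp in hPFE. In the hPFE lists the strongest H3K27me3 peaks of CRABP1 had folds of 5.82 and 9.39, in the top 2.4% and 0.764%. H3K27ac was never at the CRABP1 start and lay at the 3′ end in both hDE and both hPFE libraries, over 635 and 340 bp in hDE and 164 and 220 bp in hPFE, with 0 bp in the hESC and hAFE libraries (exact p 0.0286, adjusted p 0.181). The hPFE peaks did not overlap the hDE ones, and in hPFE replicate 2 the peak had a fold of 1.96, with 99.4% of its list as strong or stronger. The hPFE call was lost under the stricter −log10 p, the stricter −log10 q, an overlap of at least 200 bp, and lists of equal length, and the hDE call with lists of equal length.

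CRABP2 (chr1:156699606-156705784, minus strand) had H3K27ac at its start in 7 of 8 libraries and none in hAFE replicate 2. H3K27ac covered 913 and 1467 bp in hESC, 642 and 672 bp in hDE, 1328 and 0 bp in hAFE, and 2258 and 953 bp in hPFE, and these groups overlapped (exact p 0.543). H3K27me3 covered 1623 and 2361 bp in hESC, 0 and 575 bp in hDE, and 0 bp in the hAFE library and both hPFE libraries (exact p 0.143). CRABP2 lost H3K27me3 in hPFE against hESC under each of the 11 alternatives tried.

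All 3 marks met at the ends of CRABP2 alone among the 10 genes in hESC, beside 2.77% of all genes, and of CRABP1 alone in hDE (2.16%), where the H3K27ac was at the 3′ end. They met at CYP26A1 and CYP26C1 in hAFE (0.804%), and at CYP26A1 and CRABP1 in hPFE (1.21%). At CRABP1 the H3K27ac was again at the 3′ end, and the H3K27me3 at the start. The hAFE H3K27me3 came from 1 library, and at CYP26A1 it covered 0 bp inside the gene. The H3K27ac calls of CYP26C1 in hAFE and of CYP26A1 in hPFE were lost under the stricter −log10 p and −log10 q. Both were also lost with lists of equal length. In hPFE replicate 2 the H3K27ac end peak of CYP26A1 ended 766 bp before the gene and overlapped no hPFE H3K27me3 peak. H3K4me2 with H3K27ac and without H3K27me3 was found at DHRS3 in hESC (37.1% of all genes), at RDH10, DHRS3 and CYP26A1 in hDE (46.9%), at RDH10 and DHRS3 in hAFE (33.1%), and at RDH10, DHRS3 and CRABP2 in hPFE (45.6%). The RDH10 entries rest on the peaks it shares with RPL7.

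By step, in hDE against hESC, CYP26A1 and CRABP1 gained H3K27ac (6.72% of all genes gained it), 0 of 10 lost it (1.18%), CYP26A1 lost H3K27me3 (4.27%) and 0 of 10 gained it (0.634%). In hAFE against hDE, CYP26C1 gained H3K27ac (0.459%) and CRABP1 lost it (6.77%), while CYP26A1 gained H3K27me3 in the 1 hAFE library (2.17%) and 0 of 10 lost it (2.05%). In hPFE against hAFE, CRABP1 gained H3K27ac (3.81%) and CYP26C1 lost it (0.185%), with 0 gains (1.5%) and 0 losses (2.49%) of H3K27me3. No synthesis gene gained or lost H3K27ac or H3K27me3 in any of these steps.

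Over longer spans, in hPFE against hESC, CYP26A1 and CRABP1 gained H3K27ac (5.25%), 0 lost it (1.63%), CRABP2 lost H3K27me3 (6.22%) and 0 gained it (1.13%). In hAFE against hESC, CYP26A1 and CYP26C1 gained H3K27ac (1.4%), 0 lost it (3.05%), CRABP2 lost H3K27me3 (6.43%) and 0 gained it (1.55%). In hPFE against hDE, 0 of 10 gained H3K27ac (1.92%) or lost it (3.17%), CYP26A1 gained H3K27me3 (1.62%) and 0 lost it (2.19%). That H3K27me3 gain was lost under the stricter −log10 p, the stricter −log10 q, windows of 2.5 kb, and lists of equal length. H3K4me2 was lost by ALDH1A1 alone, in hDE, in hAFE (4.54%) and in hPFE (4.47%), each against hESC, where 0.449%, 1.67% and 1.56% of all genes gained it and 0 of the 10 did. Between the later stages 0 of the 10 gained or lost H3K4me2, beside 2.16% and 2.2% of all genes in hAFE against hDE, 3.49% and 3.58% in hPFE against hAFE, and 2.24% and 2.32% in hPFE against hDE.

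None of the 10 genes passed the stage test after adjustment, and neither did any other gene: 0 had an adjusted p under 0.05 in the exact permutation test for any mark. The exact p could not go below 0.00952 for H3K27ac and H3K27me3 or 0.0222 for H3K4me2. Few genes were at that floor (5.12%, 1.7% and 5.26%), so an adjusted p under 0.05 was out of reach. The 0 therefore does not show that the stages were alike. At an exact p of 0.05 or less were 4 of the 10 for H3K27ac (RDH10, DHRS3, CYP26A1 and CRABP1), beside 22% of 16572 genes, and 2 for H3K27me3 (CYP26A1 and CRABP1), beside 8.43% of 12794. For H3K4me2 it was 1 (ALDH1A2), beside 10.8% of 17716. The median exact p of the 10 genes was 0.171 for H3K27ac, 0.129 for H3K27me3 and 0.233 for H3K4me2, and over all genes tested it was 0.143, 0.429 and 0.267. Whether replicates came from separate cultures is not in the labels, so the p-values speak only for the spread among these libraries, which may be technical.

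Within 100 kb of the synthesis and degradation genes, the number of acetylated regions differed by stage. Counting regions within 100 kb that lay at no other gene's end and were in both libraries of a stage, H3K27ac had 1, 5, 0 and 2 near the 4 synthesis genes and 1, 3, 11 and 5 near the 3 degradation genes in hESC, hDE, hAFE and hPFE. These counts keep regions at the genes' own ends, which were 0 at each stage for synthesis and 0, 2, 2 and 2 for degradation. The synthesis 0 follows from the rule, because the end region of RDH10 is also at RPL7 and was left out. Ends of CYP26A1 and CYP26C1 were not counted against each other. With regions at other genes' ends kept, the counts were 2, 9, 1 and 3 for synthesis and 1, 3, 12 and 5 for degradation. Flank regions of the degradation genes were 1, 1, 7 and 3. The same count over all genes is not given here. The windows searched spanned 1032 kb for the synthesis genes and 436 kb for the degradation genes. In hDE the 5 synthesis regions were 3 near ALDH1A1, 1 of them also in both hESC libraries, and 2 near ALDH1A3. The 11 degradation regions of hAFE were all on the CYP26A1 and CYP26C1 side, and CYP26B1 had none at any stage. When peaks under a −log10 p of 5 were left out, the synthesis genes had 1, 1, 0 and 0 and the degradation genes 0, 3, 3 and 3.

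**Figure D4:**
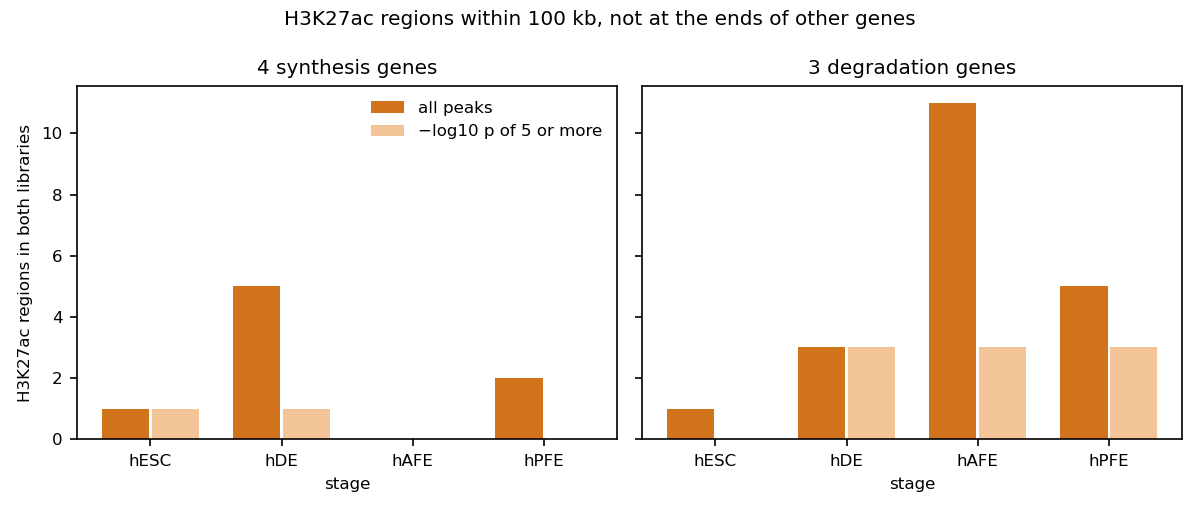
Number of H3K27ac regions present in both libraries of each stage within 100 kb of the 4 synthesis genes (left) and the 3 degradation genes (right), leaving out regions at the ends of other genes. This leaves out the RDH10 end region, which is also at RPL7. Dark bars use all deposited peaks and light bars those of −log10 p of 5 or more. The degradation genes reach 11 in hAFE with all peaks and 3 with the stricter ones.

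Other genes of the pathway were taken from lists of 22 further retinoid handling genes, 6 receptors and 11 known target genes, of which the last 2 lists share RARB. Of the handling genes, H3K27ac marked 6, 7, 4 and 6 of 22 in hESC, hDE, hAFE and hPFE, beside 42.9%, 54%, 34.2% and 50.2% of all genes. CYP1B1, whose enzyme can also oxidise retinol, and RDH13 gained it in hDE against hESC (6.72% of all genes), and BCO1, the carotene-cleaving oxygenase gene, lost it (1.18%). RDH13 lost it in hAFE against hDE (6.77%). STRA6, the retinol transporter gene, gained it in hPFE against hAFE (3.81%), with 335 and 153 bp at its ends in hPFE and 0 bp in hAFE. Of the receptors, RXRG gained and RARG lost H3K27ac in hDE against hESC, and RXRG lost it in hAFE against hDE.

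Among the 11 target genes, H3K27me3 marked 9, 7, 5 and 2 in hESC, hDE, hAFE and hPFE, beside 19.2%, 13.4%, 15.5% and 12.7% of all genes, and 6 lost it in hPFE against hESC, where 6.22% of all genes did. H3K27ac marked 0, 4, 3 and 5 of the 11, near or below its share of all genes (42.9%, 54%, 34.2% and 50.2%). MEIS1 and MEIS2, genes of HOX cofactors, were among those that gained it in hDE against hESC. At its ends MEIS1 had 0 and 0 bp of H3K27ac in hESC, 1336 and 1317 bp in hDE, 2517 and 2196 bp in hAFE, and 2974 and 1039 bp in hPFE. MEIS2 had 0 and 0 bp in hESC, 1039 and 369 bp in hDE, 1722 and 522 bp in hAFE, and 2631 and 1592 bp in hPFE. In both genes no hESC library had the mark and every later library did. MEIS1, MEIS2 and TSHZ1, a zinc finger gene, were among the target genes that gained H3K27ac in hPFE against hESC.

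No other gene had the CYP26A1 pattern of peaks at its ends in all 21 libraries. The nearest, chosen after their values were seen, were FOXA2, NDRG4 and VIM, which each differed from it in 2 libraries. Their mean absolute difference from CYP26A1 in log2(covered bp + 1) was 1.59, 1.7 and 1.86.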

How the data were processed

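Per the deposited file names, the authors removed duplicates, called peaks library by library against a stage input at a p-value of 0.01, and kept at most 500 K. The submitters' processing notes give hg38. An aligner and a caller are not given in the sources used. Each deposited peak has a fold enrichment (a ratio over control), a −log10 p, a −log10 q, an integer score and a summit offset, all the authors' values. The deposited fold, −log10 p and −log10 q describe, rank or filter peaks within 1 list, and the score and the summit were not used. The lists hold no read counts, so depth is unknown and a missing peak does not show a missing mark.

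Overlapping peaks of a list were merged, and an overlap of 1 bp counted, with Python 3.11.15, numpy 2.4.6 and pandas 2.3.3. Figures were drawn with matplotlib 3.10.9. Gene positions came from the RefSeq table of GRCh38.p14, and strands, starts and promoters from the RefSeq promoter table, which matched 9 of the 10 genes. The stage test used the sum of squares between stages over all 105 (H3K27ac, H3K27me3) or 45 (H3K4me2) partitions and was checked on simulated data. The members and lists were chosen with earlier results of these data known, and all 10 members are described. From the other lists, genes that gained or lost H3K27ac in a step are named, up to 4 a list and step, except for some genes that are not reported here.

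Alternatives were a minimum −log10 p of 5, a minimum −log10 q of 2, an overlap of 200 bp, windows of 500 bp, 2.5 kb or the whole gene, lists shortened to the shortest of the mark by −log10 p, each library left out, a replicate block, a flank of 50 kb, and, for the test, gene ends in place of whole genes and log2(bp + 1).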

Additional observations from a re-analysis of the deposited data

How the results depend on the processing

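The stage test gave 0 genes at an adjusted p under 0.05 in each alternative run for each mark. The hDE gain of H3K27ac at CYP26A1 and the hPFE loss of H3K27me3 at CRABP2, both against hESC, were called under all 11 alternatives tried for each. The causes of the differences below were not tested, beyond the fewer peaks that the stricter lists hold.

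With a minimum −log10 p of 5, and equally with a minimum −log10 q of 2, H3K27ac marked 3 members in hPFE, and the members gaining H3K27ac were 0 in hAFE against hDE, in hPFE against hAFE and in hPFE against hESC. Losses of H3K27ac in hPFE against hAFE, gains of H3K27me3 in hPFE against hDE and losses of H3K4me2 in hDE against hESC were 0 as well. With that −log10 p, H3K27ac regions numbered 1 in hDE and 0 in hPFE for synthesis, and 0 in hESC, 3 in hAFE and 3 in hPFE for degradation. With that −log10 q they were 3 in hDE and 1 in hPFE for synthesis, and 0, 3 and 3 for degradation. Regions of hAFE alone near CYP26C1 numbered 2 in both cases, 3 with equal lists, and 8 to 15 with 1 library left out, alternatives that were added after the data were seen.

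With lists of equal length, H3K27ac marked 2 members in hDE and 1 in hPFE. Gains were then 1 in hDE against hESC and 0 in hAFE against hDE, hPFE against hAFE and hPFE against hESC, losses in hAFE against hDE 0, and H3K27me3 gains in hPFE against hDE 0. The regions were 0 in hDE and 0 in hPFE for synthesis, and 0 in hESC, 4 in hAFE and 0 in hPFE for degradation. With an overlap of 200 bp, H3K27ac gains were 0 in hPFE against hAFE and 1 in hPFE against hESC, and H3K4me2 losses 0. Windows of 500 bp gave 1 H3K27ac gain in hPFE against hESC. Windows of 2.5 kb gave 2 H3K27ac losses in hAFE against hDE, 0 H3K27me3 losses in hDE against hESC and 0 H3K27me3 gains in hPFE against hDE. With the whole gene, H3K27me3 marked 8 members in hDE, H3K27ac losses in hAFE against hDE and gains in hPFE against hAFE were 2 each, H3K27me3 losses in hPFE against hDE were 1, and H3K4me2 losses 0. A flank of 50 kb gave 0 regions in hESC and 2 in hDE for synthesis, and 0 in hESC and 2 in hPFE for degradation.

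With 1 library left out, H3K27ac losses ranged from 0 to 1 in hDE against hESC, from 1 to 2 in hAFE against hDE and from 0 to 1 in hPFE against hESC, and gains from 1 to 2 in hPFE against hAFE. H3K27me3 losses ranged from 1 to 3 in hDE against hESC (3 without hDE replicate 2), from 0 to 1 in hPFE against hDE and from 1 to 2 in hPFE against hESC, and gains from 1 to 2 in hPFE against hDE. Leaving out a library adds such calls by construction.

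Whether the shared replicate numbers stand for a pairing is not in the labels. For H3K27ac, deviations of replicate 1 correlated between stages at -0.174 to 0.252, over 0.1 in 1 of 6 pairs. These correlations cannot decide it, and the other marks were not checked. The replicate block, possible for H3K27ac only, gave 0 genes, and CYP26A1 had an exact p of 0.0417, the smallest it allows.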
